A study of Arabidopsis thaliana with 16 samples.

Results

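A set of 10 named genes of xylem formation were followed in RNA-seq of Arabidopsis hypocotyls, the embryonic stems of seedlings, and were identified by their locus codes: VND6 (AT5G62380), VND7 (AT1G71930), SND1 (AT1G32770), NST1 (AT2G46770), MYB46 (AT5G12870), MYB83 (AT3G08500), XCP1 (AT4G35350), XCP2 (AT1G20850), IRX9 (AT2G37090) and FRA8 (AT2G28110). They are 10 of the 33296 genes in the count table, and 8 of them were among the 20505 genes with enough counts to be tested. SND1 and NST1 had no count in any of the 16 libraries. Seedlings were 6 days old and had grown on Murashige and Skoog plates under long days at 22 °C or 28 °C throughout. The wild type was Col-0. The mutant brl3-2 carries the T-DNA insertion SALK_006024C in BRL3, a brassinosteroid receptor kinase found mainly in vascular tissue. In pSUC2:BRL3-GFP; brl3-2, called pSUC2-BRL3 here, the same mutant expressed BRL3-GFP from the SUC2 promoter, which is active in phloem companion cells. BRL3ox expressed BRL3-GFP from the general 35S promoter. Each genotype had 2 libraries per temperature, so every group has n = 2. How many plants, plates or transgenic lines stood behind a group was not given in the sources used here, and p-values measure only the spread between these samples.

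Xylem vessels and fibres build a secondary cell wall of cellulose, xylan and lignin, and then die and empty themselves. NAC transcription factors start this program: VND6 and VND7 in vessels, SND1 and NST1 mainly in fibres. They switch on MYB46 and MYB83, which in turn activate the genes of wall synthesis, and NAC factors of the vessels also activate the proteases XCP1 and XCP2, which digest the dying cell. In a young hypocotyl the vessels lie in a thin central strand, and fibres form only later.

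Total counts per library ran from 19014140 to 26564829. BRL3 checked the labels: it was measured at 10.5 to 28.8 CPM (counts scaled to library size with TMM factors, the unit of all levels unless another is named) for Col-0, 0.53 to 1.04 for brl3-2, 38.6 to 178 for pSUC2-BRL3 and 715 to 2478 for BRL3ox. These ranges hold both temperatures. From 22 °C to 28 °C BRL3 rose by 1.735 in pSUC2-BRL3 and 1.606 in BRL3ox on the log2 scale (edgeR, adjusted p = 0.00121 and 0.00181). In Col-0 and brl3-2 its changes of 0.78 and 0.42 did not pass (adjusted p = 0.0533 and 0.478). The level of BRL3 in the 2 transgenic lines thus differed between the temperatures. Replicate 2 of BRL3ox at 22 °C stood apart from the other libraries, and 4523 genes lay at least 2-fold from its partner. Between the replicates of pSUC2-BRL3 at 28 °C the number was 1576, against 623 to 1158 in the other 6 groups. Results without the 2 libraries that stood apart leave out that BRL3ox library and the first replicate of the warm pSUC2-BRL3 pair. Which library of that pair was the odd one cannot be told from the pair alone. On the first principal component of all libraries its replicate 2 lay at 43.1, below the 56.5 to 84.7 of the other 28 °C libraries. Replicate 1, the one left out, lay within them at 77.9, so those results keep the replicate that lay outside. All 8 markers of xylem were detected at both temperatures, with summed levels of 46.3 to 76.1 CPM at 22 °C and 53.4 to 91.9 CPM at 28 °C, but XCP1 and XCP2 belong to that list. The 5 markers of mesophyll, the green leaf tissue, summed to 81730 to 114900 CPM at 22 °C and to 23840 to 40090 CPM at 28 °C. For 6 phloem markers the sums were 212 to 265 and 157 to 196 CPM, and for 4 root markers 3.14 to 17.7 and 3.91 to 7.89 CPM. What part these shifts had in the temperature results was not tested, and in whole hypocotyls fewer cells of a type cannot be told apart from less RNA per cell.

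FRA8 rose at 28 °C in 2 of the 4 genotypes, MYB46 and IRX9 rose in 1 each, and VND6 fell in 1. In Col-0, FRA8 rose and VND6 fell at 28 °C, so that 1 of 8 tested genes was called higher, against 21.7% of all tested genes, and 1 was called lower, against 23.3%. The comparisons of the other genotypes had a call for IRX9, higher in brl3-2 (1 of 8, background 25.8% higher), for no gene in pSUC2-BRL3 (background 19.6% higher) and for MYB46 and FRA8, both higher in BRL3ox (2 of 8, background 18.3% higher). None was called lower in brl3-2, pSUC2-BRL3 or BRL3ox, where 4768, 3992 and 3960 of all 20505 tested genes were. Averaged over the 4 genotypes, MYB46, IRX9 and FRA8 were higher at 28 °C, 3 of 8 against a background of 35.9%. Without the 2 libraries that stood apart MYB46 lost its call. None of the 8 was called lower on average, against a background of 33.5%. With 8 genes a share moves in coarse steps, and none of these counts was read as a property of the group. Calls are at an adjusted p below 0.05 in edgeR's quasi-likelihood test with Benjamini-Hochberg adjustment over all tested genes. With 0 calls by edgeR in pSUC2-BRL3, 0 of the genes reached an unadjusted p below 0.05 and DESeq2 also called 0. The scaling bears on all of these: with library totals in place of TMM the median change of all genes in Col-0 moved up by 0.53 on the log2 scale, and 9513 genes were called higher and 2115 lower, in place of 4445 and 4773. The corresponding shifts were 0.52 in brl3-2, 0.58 in pSUC2-BRL3, 0.67 in BRL3ox and 0.58 for the average, where the calls went from 7354 higher and 6859 lower to 13397 and 2742. Among the 8 genes the calls under library totals were 4 in Col-0, 2 in brl3-2, 1 in pSUC2-BRL3, 3 in BRL3ox and 6 on average. Of all 20505 tested genes, that scaling called 11628, 11701, 11433, 12046 and 16139 in the same order. All changes with temperature are therefore relative to the bulk of the genes. The 2 temperatures did not overlap for 5 of the 8 genes in Col-0, 2 in brl3-2, 3 in pSUC2-BRL3 and 5 in BRL3ox, against 80%, 82.1%, 74.6% and 61% of all tested genes.

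**Figure D1:**
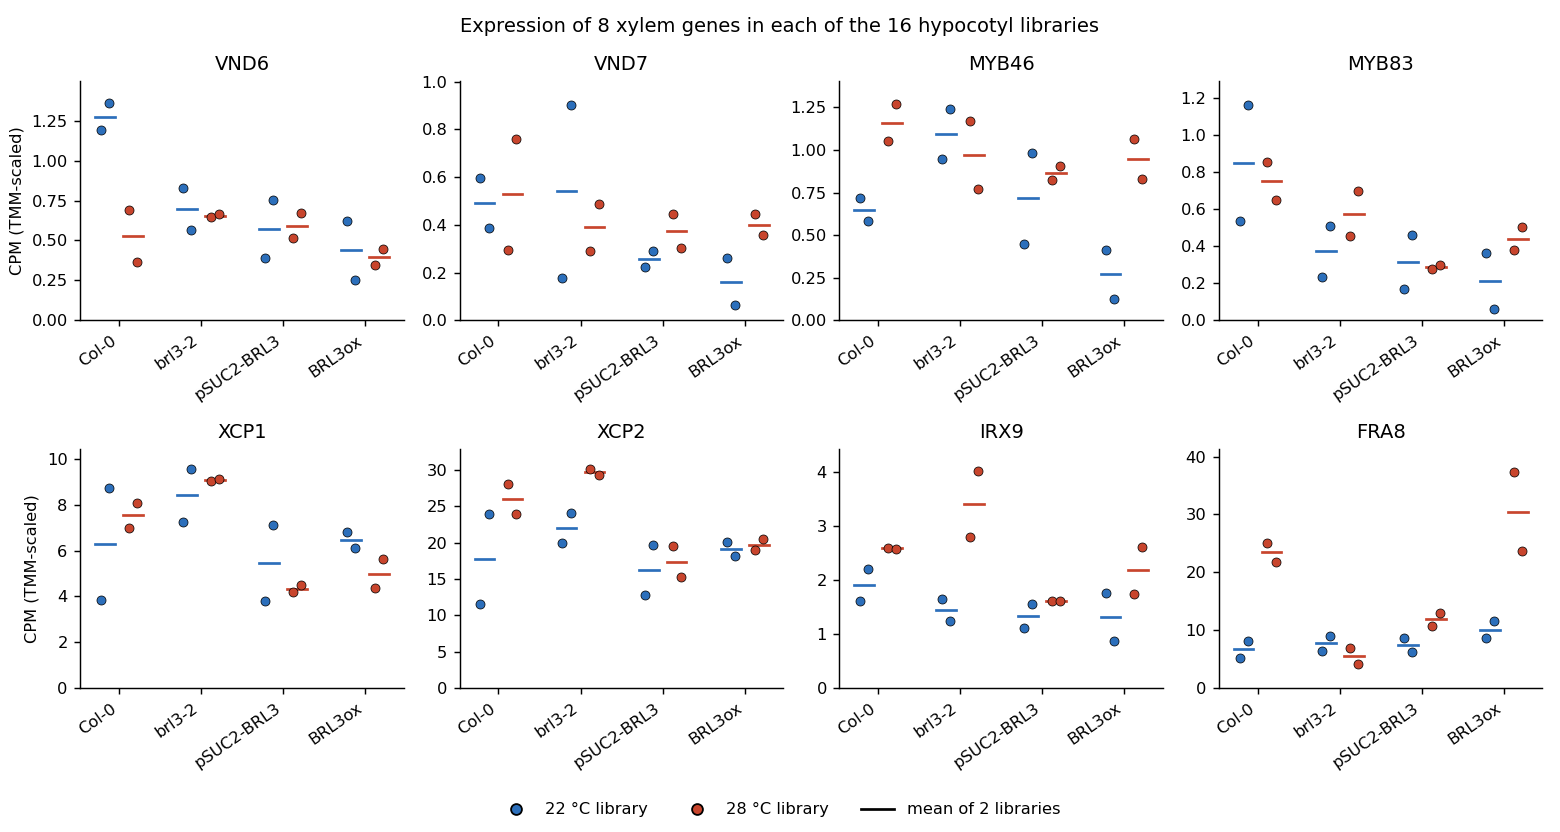
Level of each of the 8 tested genes (y axis, CPM) in each library, by genotype (x axis) and temperature (blue, 22 °C; red, 28 °C), with the mean of the 2 libraries as a line. FRA8 reached 21.7 to 37.3 CPM in Col-0 and BRL3ox at 28 °C and no more than 12.95 CPM in the other libraries. For XCP1, and likewise for XCP2, the range over all genotypes at 22 °C overlapped that at 28 °C.

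**Figure D2:**
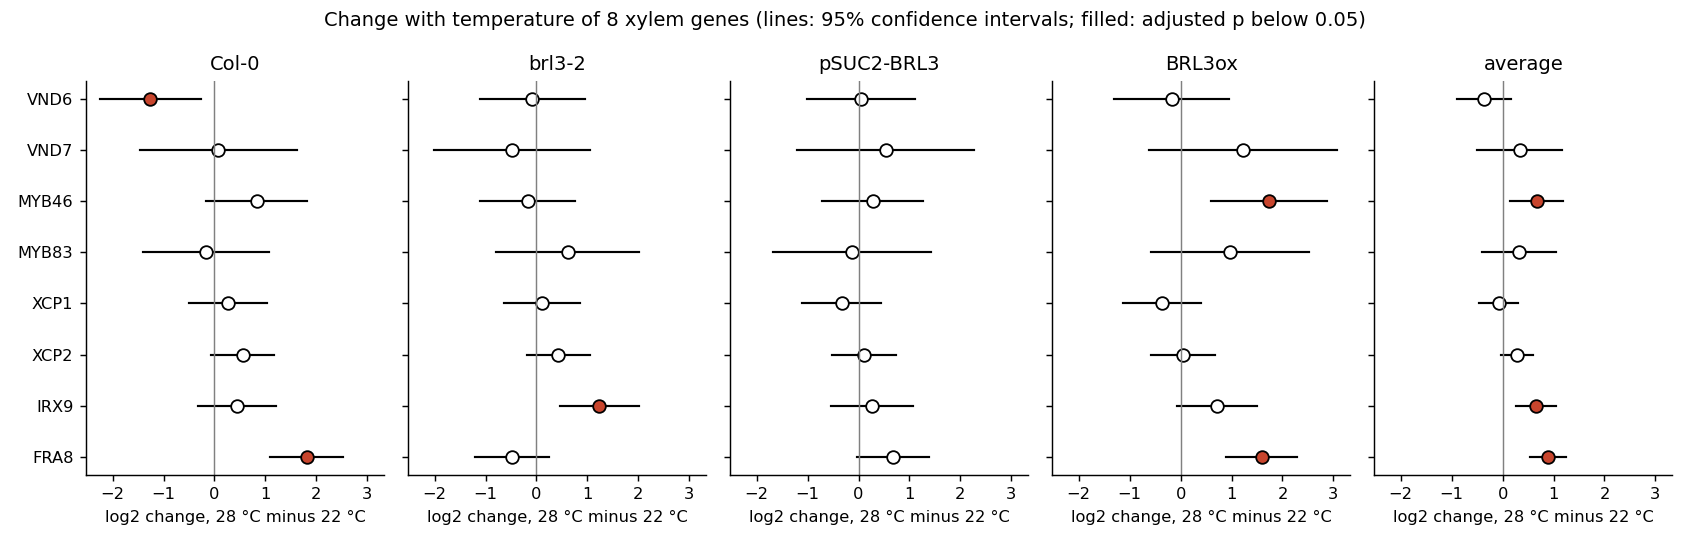
Change from 22 °C to 28 °C (x axis, log2) of the 8 tested genes in each genotype and on average, with 95% confidence intervals as lines and filled points at an adjusted p below 0.05. FRA8 rose by 1.81 in Col-0 and 1.59 in BRL3ox, while in brl3-2 its value was -0.48 (0.03 with library totals as the scaling) and was not called.

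The NAC factors of the vessels were near the limit of detection, with 4 to 21 counts of VND6 and 1 to 21 counts of VND7 in a library. VND6, which drives the wide vessels of the metaxylem, was measured in Col-0 at 1.19 and 1.36 CPM at 22 °C and at 0.69 and 0.36 CPM at 28 °C. Both warm libraries lay below both cool ones, and those 2 cool libraries were also the highest of all 16. The change was -1.26 (SE 0.45, adjusted p = 0.0408), a 2.40-fold decrease. This call was lost in 10 of 16 fits that left out a single library, where the change ran from -1.80 to -0.88 and the adjusted p from 0.0236 to 0.233, and with library totals as the scaling (-0.74, adjusted p = 0.192). In brl3-2 VND6 stood at 0.83 and 0.57 CPM at 22 °C and 0.65 and 0.66 at 28 °C. Its levels in pSUC2-BRL3 were 0.39 and 0.75 CPM, then 0.51 and 0.67. BRL3ox gave 0.62 and 0.25 CPM, then 0.34 and 0.45. In these 3 lines the 2 temperatures overlapped and the changes of -0.08, 0.05 and -0.17 did not pass the test. The responses of these lines were 1.18, 1.32 and 1.09 above that of Col-0 on the log2 scale, and none of these differences passed (adjusted p = 0.395, 0.310 and 0.352).

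VND7, the master switch of the narrow vessels of the protoxylem, ranged from 0.063 to 0.90 CPM at 22 °C, with a median of 0.27 CPM. At 28 °C it ranged from 0.29 to 0.76 CPM, with a median of 0.40 CPM. Over all genotypes the temperatures overlapped, and within pSUC2-BRL3 and BRL3ox the warm libraries lay above the cool ones. VND7 was called in none of the 16 comparisons, with changes at 28 °C of 0.08 in Col-0, -0.48 in brl3-2, 0.53 in pSUC2-BRL3 and 1.22 in BRL3ox. Their 95% intervals were wide: in BRL3ox it went from -0.63 to 3.07. SND1 and NST1, the fibre regulators, were at 0 counts in all libraries. In a single library a count of 0 allows up to 3 counts, at most 0.194 CPM. Genes were counted below that value in some libraries, as VND7 was at 0.063 CPM. The limit over all 16 libraries together is lower and was not calculated. NST1 and SND1 share an identical run of 22 bases between their transcripts, and VND6 and VND7 one of 17. Reads lying wholly within such a run could be split or dropped, and whether any were was not tested. A stretch of 77 exonic bases of VND6 overlaps an exon of AT5G62390 on the opposite strand, and whether the counting used the strand was not stated in the sources used here, so reads there cannot be told apart.

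MYB46 and MYB83 are close relatives that act redundantly below the NAC factors. The start of MYB83 carried the elements of several regulators, and its 250 bases before the annotated transcript start (chr3:2578277-2578526, minus strand, TAIR10.1) are shown for that reason, from RefSeq, with matches in capitals.
MYB83: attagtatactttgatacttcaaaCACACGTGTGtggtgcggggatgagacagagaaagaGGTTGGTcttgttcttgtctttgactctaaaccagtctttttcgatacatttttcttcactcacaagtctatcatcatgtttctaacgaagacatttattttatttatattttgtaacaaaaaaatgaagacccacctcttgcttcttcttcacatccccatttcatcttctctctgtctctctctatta
The first capitals hold the G-box CACGTG and, overlapping it on either side, the brassinosteroid response element CGTGTG on both strands. The second run is a match, read on the minus strand, to the element bound by MYB46 and MYB83 themselves. That element was searched as ACCAAAC or ACCAAAT, with ACCAACC or ACCAACT, with ACCTAAC or ACCTAAT, and with ACCTACC or ACCTACT. On both strands, 29.4% of the 27443 such windows of protein-coding genes held it, among them those of VND7, MYB83 and FRA8. The G-box was in 6.49% and the brassinosteroid element (CGTGTG or CGTGCG) in 6.71%, and among the 10 genes only MYB83 had either. A match describes letters and not binding.

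MYB46 was measured in Col-0 at 0.72 and 0.58 CPM at 22 °C and at 1.05 and 1.27 CPM at 28 °C. In BRL3ox it stood at 0.42 and 0.13 CPM at 22 °C, the lowest libraries of all, and at 1.06 and 0.83 CPM at 28 °C. The temperatures did not overlap in either genotype. In BRL3ox the change of 1.74 passed (SE 0.52, adjusted p = 0.0215), but not without replicate 2 at 22 °C (1.18, adjusted p = 0.105), the library that stood apart with 2 counts of MYB46, nor without replicate 1 at 28 °C (1.55, adjusted p = 0.0937). In Col-0 the change was 0.83 (SE 0.46, adjusted p = 0.160). MYB46 in brl3-2 was at 0.94 and 1.24 CPM, then 1.17 and 0.77. The pSUC2-BRL3 line had 0.45 and 0.98 CPM, then 0.82 and 0.90. There the temperatures overlapped, and the changes of -0.17 and 0.27 were not called. Averaged over the genotypes MYB46 rose by 0.67 (SE 0.23, adjusted p = 0.0239), a call that was lost in 6 of the 16 fits without a single library (0.53 to 0.95, adjusted p from 0.00627 to 0.0602).

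MYB83 was measured in Col-0 at 0.54 and 1.17 CPM at 22 °C and at 0.85 and 0.65 CPM at 28 °C. The brl3-2 libraries gave 0.24 and 0.51 CPM, then 0.45 and 0.70. In both genotypes the temperatures overlapped. For pSUC2-BRL3 the values were 0.17 and 0.46 CPM, then 0.27 and 0.30. BRL3ox had 0.36 and 0.063 CPM at 22 °C and 0.38 and 0.51 CPM at 28 °C, and the warm libraries lay above the cool ones. MYB83 had its highest group mean in Col-0 at both temperatures. No change with temperature was called (-0.16, 0.61, -0.12 and 0.97 in the order above). At 22 °C the differences from Col-0 were -1.16 in brl3-2, -1.42 in pSUC2-BRL3 and -1.89 in BRL3ox. None passed (adjusted p = 0.367, 0.187 and 0.0604), and the 3 comparisons share the same 2 Col-0 controls. Without replicate 1 of BRL3ox at 22 °C, which leaves the library that stood apart with its single count of MYB83, the difference in BRL3ox was -3.64 (adjusted p = 0.0150), and MYB46 was then also called lower (-2.32, adjusted p = 0.0302). At 1 to 26 counts in a library, MYB83 is measured with little precision.

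XCP1 and XCP2 are papain-like cysteine proteases that accumulate in the vacuole of differentiating vessels and digest the cell contents. Per length, their ranges lay above those of VND6, VND7, MYB46, MYB83 and IRX9 at each temperature. Their promoters are shown because the genes moved together across the libraries. Both are read from RefSeq (TAIR10.1, plus strand), XCP1 from chr4:16810232-16810481 and XCP2 from chr1:7251861-7252110.
XCP1: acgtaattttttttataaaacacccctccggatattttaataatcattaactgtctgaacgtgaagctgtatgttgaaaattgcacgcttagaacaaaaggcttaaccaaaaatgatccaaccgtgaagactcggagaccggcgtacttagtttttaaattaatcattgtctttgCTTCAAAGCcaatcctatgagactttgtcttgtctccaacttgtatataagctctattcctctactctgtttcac
XCP2: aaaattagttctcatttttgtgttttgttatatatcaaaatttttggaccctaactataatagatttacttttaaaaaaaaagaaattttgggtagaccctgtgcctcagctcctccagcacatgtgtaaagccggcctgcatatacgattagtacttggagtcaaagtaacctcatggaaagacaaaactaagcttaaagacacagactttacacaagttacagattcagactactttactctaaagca
The capitals of XCP1 mark CTTCAAAGC, starting 75 bases before the transcript. They match the first letters, CTTNAAAGC, of the tracheary element regulating element known from vessel genes. On both strands 1.08% of all windows held these letters, and XCP1 was the only one of the 10 genes to do so. XCP2 had none of the letters searched in this window.

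XCP1 was measured in Col-0 at 3.82 and 8.73 CPM at 22 °C and at 6.99 and 8.08 CPM at 28 °C. In brl3-2 it stood at 7.26 and 9.55 CPM, then 9.05 and 9.11, while the pSUC2-BRL3 libraries had 3.80 and 7.11, then 4.19 and 4.49. BRL3ox gave 6.80 and 6.10 CPM at 22 °C and 4.36 and 5.62 CPM at 28 °C. The highest levels at 28 °C were thus in brl3-2 and the lowest in pSUC2-BRL3 and BRL3ox, and at 22 °C the spread between replicates covered most of the range. XCP2 followed the same order at 28 °C, with 30.1 and 29.3 CPM in brl3-2, 28.0 and 24.0 in Col-0, 18.97 and 20.5 in BRL3ox and 19.6 and 15.3 in pSUC2-BRL3. At 22 °C Col-0 had 11.6 and 23.9 CPM of XCP2, brl3-2 had 20.01 and 24.1, pSUC2-BRL3 had 12.8 and 19.7, and BRL3ox had 20.1 and 18.2. Within a genotype the temperatures did not overlap for XCP2 in Col-0 and brl3-2, higher at 28 °C, and for XCP1 in BRL3ox, lower at 28 °C. Neither gene was called in any of the 16 comparisons. Their changes with temperature ran from -0.37 to 0.27 for XCP1 and from 0.04 to 0.55 for XCP2, the latter with adjusted p values of 0.137 in Col-0 and 0.229 in brl3-2. Without replicate 2 of Col-0 at 22 °C, XCP2 was called higher in Col-0 (1.17, adjusted p = 0.00849) and on average (0.43, adjusted p = 0.00495), and without replicate 2 of pSUC2-BRL3 at 22 °C on average (0.37, adjusted p = 0.0445). With library totals as the scaling XCP2 was called higher in Col-0 (1.08, adjusted p = 0.00847) and brl3-2 (0.94, adjusted p = 0.0161), and its averaged change went from 0.28 to 0.86. The averaged change of XCP1 turned from -0.08 to 0.50 under that scaling.

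At 28 °C both libraries of pSUC2-BRL3 lay below both of brl3-2 for XCP1 and XCP2. The differences were -1.07 (95% interval -1.82 to -0.31, adjusted p = 0.159) and -0.77 (95% interval -1.39 to -0.15, adjusted p = 0.211), and neither passed. Across the 16 libraries the log2 levels of the proteases had a Pearson r of 0.846, which was 0.990 over the 8 libraries at 22 °C and 0.895 over the 8 at 28 °C. That was the highest of the 28 pairs among the tested genes, whose r ran from -0.54 to 0.846 with a median of 0.27. The libraries share temperature, genotype and depth, so these values are a description. The transcripts of XCP1 and XCP2 share at most 23 identical bases in a row, and XCP1 overlaps AT4G35360 on the opposite strand by 2 bases.

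**Figure D3:**
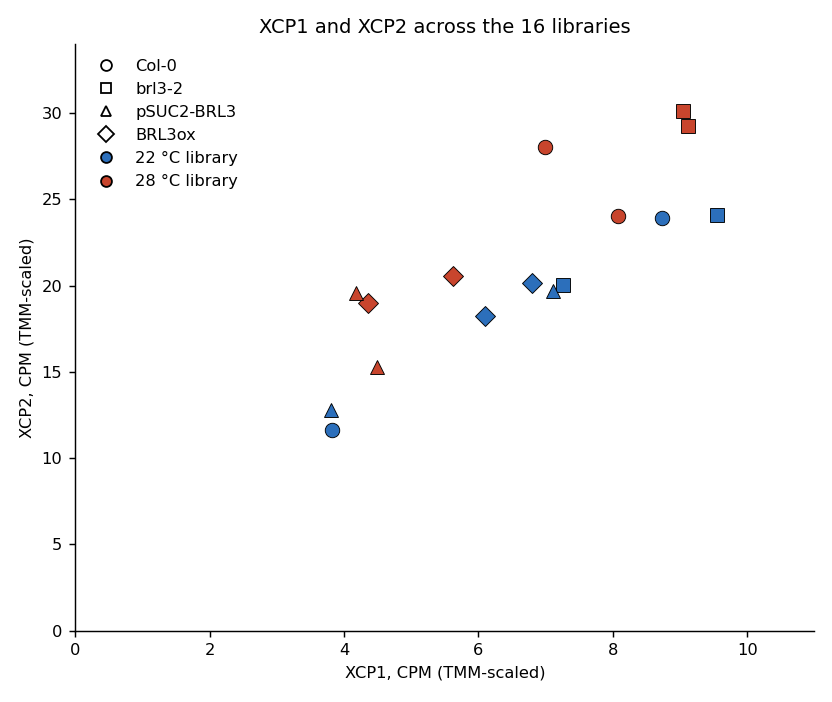
Level of XCP2 (y axis, CPM) against XCP1 (x axis, CPM) in each of the 16 libraries, with shape for genotype and colour for temperature. The lowest levels are those of replicate 1 of Col-0 (3.82 and 11.6 CPM) and of pSUC2-BRL3 (3.80 and 12.8 CPM) at 22 °C, and both brl3-2 libraries at 28 °C lie at the top (9.05 and 30.1, 9.11 and 29.3 CPM).

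IRX9, a glycosyltransferase that elongates the xylan backbone, was measured in brl3-2 at 1.65 and 1.24 CPM at 22 °C and at 2.79 and 4.02 CPM at 28 °C. The warm libraries lay above the cool ones, and the change of 1.23 passed (SE 0.35, adjusted p = 0.0136, 2.35-fold). It was lost without replicate 2 at 22 °C (1.04, adjusted p = 0.0990) or replicate 2 at 28 °C (0.94, adjusted p = 0.0982). In Col-0 IRX9 went from 1.61 and 2.20 to 2.59 and 2.57 CPM. The pSUC2-BRL3 libraries were at 1.12 and 1.56 CPM, then at 1.61 and 1.61, and those of BRL3ox at 1.76 and 0.88, then at 1.75 and 2.62. Temperatures did not overlap in Col-0 and pSUC2-BRL3 and did in BRL3ox, and the changes of 0.44, 0.27 and 0.71 did not pass. The change in BRL3ox was called without replicate 1 at 22 °C (1.31, adjusted p = 0.0288). Whether IRX9 responded more in brl3-2 than in Col-0 was tested and not called (0.79, adjusted p = 0.462). The averaged change was 0.66 (SE 0.18, adjusted p = 0.00602), and it kept its call in all 16 fits without a single library.

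FRA8, a glycosyltransferase that makes the sequence at the reducing end of xylan, was called higher at 28 °C in Col-0 and BRL3ox. The gene spans bases 11977865 to 11980003 of chromosome 2 (TAIR10.1, minus strand), with 4 exons, and its last 49 bases overlap AT2G28105 on the opposite strand. Its 250 bases before the transcript (chr2:11980004-11980253, minus strand) are shown as those of a gene called with temperature in 2 genotypes.
FRA8: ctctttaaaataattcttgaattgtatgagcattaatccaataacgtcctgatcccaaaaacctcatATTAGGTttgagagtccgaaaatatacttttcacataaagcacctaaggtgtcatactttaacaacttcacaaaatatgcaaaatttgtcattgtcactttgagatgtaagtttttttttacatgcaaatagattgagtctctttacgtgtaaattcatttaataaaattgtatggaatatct
The capitals mark ATTAGGT, starting 183 bases before the transcript, a match on the minus strand to the element of MYB46 and MYB83 spelled out above, which 29.4% of all windows hold. Neither the G-box nor the brassinosteroid element was in this window.

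FRA8 was measured in Col-0 at 5.20 and 8.22 CPM at 22 °C and at 25.1 and 21.7 CPM at 28 °C. In BRL3ox it stood at 8.67 and 11.6 CPM at 22 °C and at 37.3 and 23.7 CPM at 28 °C. Both genotypes had every warm library above every cool one. In Col-0 the change was 1.81 (SE 0.33, adjusted p = 0.00126, 3.50-fold) and in BRL3ox 1.59 (SE 0.32, adjusted p = 0.00291, 3.02-fold), and both kept their call in all 16 fits without a single library. In brl3-2 FRA8 was at 6.49 and 8.93 CPM at 22 °C and at 6.94 and 4.09 CPM at 28 °C, whereas pSUC2-BRL3 had 8.61 and 6.25 CPM, then 10.8 and 12.95 CPM. The temperatures overlapped in brl3-2 and did not overlap in pSUC2-BRL3. The change in brl3-2 was -0.48 (SE 0.33, adjusted p = 0.243) and near 0 with library totals as the scaling (0.03, adjusted p = 0.945). The pSUC2-BRL3 libraries gave 0.67 (SE 0.32, adjusted p = 0.119), and 1.25 with library totals (adjusted p = 0.0066).

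At 28 °C FRA8 was lower in brl3-2 than in Col-0 by 2.09 on the log2 scale, with an SE of 0.33 and an adjusted p of 0.00786, which is 4.24-fold. It was the only 1 of the 8 tested genes called in this comparison, against a background of 3.62%. The call was lost without replicate 1 of Col-0 (-1.98, adjusted p = 0.0817) or without replicate 2 of brl3-2 at 28 °C (-1.77, adjusted p = 0.121). At this temperature the summed xylem markers were 88.4 and 85.7 CPM in Col-0 and 90.5 and 91.9 CPM in brl3-2, and the mesophyll markers 31160 and 28230 CPM against 27820 and 25490 CPM. The response of FRA8 to temperature in brl3-2 differed from that in Col-0 by -2.29 (SE 0.46, adjusted p = 0.0483), 1 of 8 genes against a background of 0.878%. This call lay close to the threshold and was lost in 14 of the 16 fits without a single library, where the difference ran from -2.73 to -1.996 and the adjusted p from 0.0138 to 0.221. With library totals as the scaling the adjusted p was 0.0504, while DESeq2 gave 0.000489. DESeq2 called more genes here, 992 of the 19187 it tested against 180 of 20505 by edgeR. In pSUC2-BRL3 and BRL3ox the differences from the response of Col-0 were -1.13 and -0.21 and did not pass (adjusted p = 0.209 and 0.799). FRA8 at 28 °C was 1.10 higher in pSUC2-BRL3 than in brl3-2 (95% interval 0.40 to 1.81) without passing in edgeR (adjusted p = 0.119), and passed in DESeq2 (adjusted p = 0.0320). Against Col-0 at 28 °C the differences of pSUC2-BRL3 and BRL3ox were -0.98 and 0.38, with adjusted p values of 0.199 and 0.580. At 22 °C the lines differed from Col-0 by 0.20, 0.15 and 0.59, and none passed (adjusted p = 0.796, 0.799 and 0.190).

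F8H (AT5G22940), the close homolog of FRA8 with the same role in xylan, differed from it in the samples where it was high. F8H was measured in Col-0 at 15.4 and 18.96 CPM at 22 °C and 18.6 and 14.4 CPM at 28 °C, and the brl3-2 libraries had 29.9 and 31.0 CPM, then 7.68 and 7.51 CPM. With pSUC2-BRL3 it went from 37.6 and 45.9 to 9.16 and 12.4 CPM. BRL3ox had 41.3 and 27.2 CPM at 22 °C and 10.7 and 11.8 CPM at 28 °C. The temperatures overlapped in Col-0 and in none of the 3 lines. F8H fell by 2.00 in brl3-2, by 1.95 in pSUC2-BRL3 and by 1.61 in BRL3ox (adjusted p = 4.72e-05, 0.000128 and 0.000321), and in Col-0 its change was -0.06 (adjusted p = 0.844; 0.47 with library totals, also not called). These responses differed from that of Col-0 by -1.94, -1.89 and -1.55 (SE 0.31 each, adjusted p = 0.0263, 0.0183 and 0.0305). The same 4 Col-0 libraries enter all 3 differences, and the calls were lost in 7, 4 and 9 of the 16 fits without a single library. FRA8 and F8H share an identical run of 31 bases. Reads lying wholly within it could be assigned to either or dropped, and whether any were was not tested.

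AT2G28120, whose transcript starts 5684 bases from that of FRA8 on the other strand, was looked at after its values had been seen. It was measured in Col-0 at 2.87 and 5.76 CPM at 22 °C and 20.4 and 19.4 CPM at 28 °C, while brl3-2 had 4.84 and 4.52 CPM, then 5.64 and 5.55. Its level with pSUC2-BRL3 went from 8.05 and 6.25 to 11.9 and 9.57 CPM. BRL3ox had 7.63 and 24.0 CPM, the latter in the library that stood apart, and then 24.2 and 16.4 CPM. Like FRA8 it was high in both Col-0 libraries at 28 °C and low in both of brl3-2, while in BRL3ox, where FRA8 rose by 1.59, its change of 0.37 did not pass (adjusted p = 0.521). AT2G28120 rose by 2.21 in Col-0 (SE 0.46, adjusted p = 0.00276) and at 28 °C was lower in brl3-2 by 1.83 (SE 0.44, adjusted p = 0.0440), a call that was lost in 12 of the 16 fits without a single library. Its response in brl3-2 differed from that of Col-0 by -1.95 without passing (adjusted p = 0.163). Its log2 level had an r of 0.860 with that of FRA8 over the 16 libraries, 0.817 at 22 °C and 0.961 at 28 °C, the rank 12 among all tested genes. The other neighbours had other patterns. AT2G28105, which overlaps FRA8, fell by 1.46 in Col-0 and by 1.46 in brl3-2 (adjusted p = 0.0117 and 0.00982), with 29 to 78 counts in a library. FUC1 (AT2G28100) rose by 0.32 and 0.62 in these genotypes (adjusted p = 0.0331 and 0.000818), and AT2G28130 was at 0.08 and -0.34 (adjusted p = 0.817 and 0.257). At 28 °C brl3-2 differed from Col-0 by 0.12, -0.03 and -0.07 in AT2G28105, FUC1 and AT2G28130, and none passed (adjusted p = 0.928, 0.939 and 0.936).

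**Figure D4:**
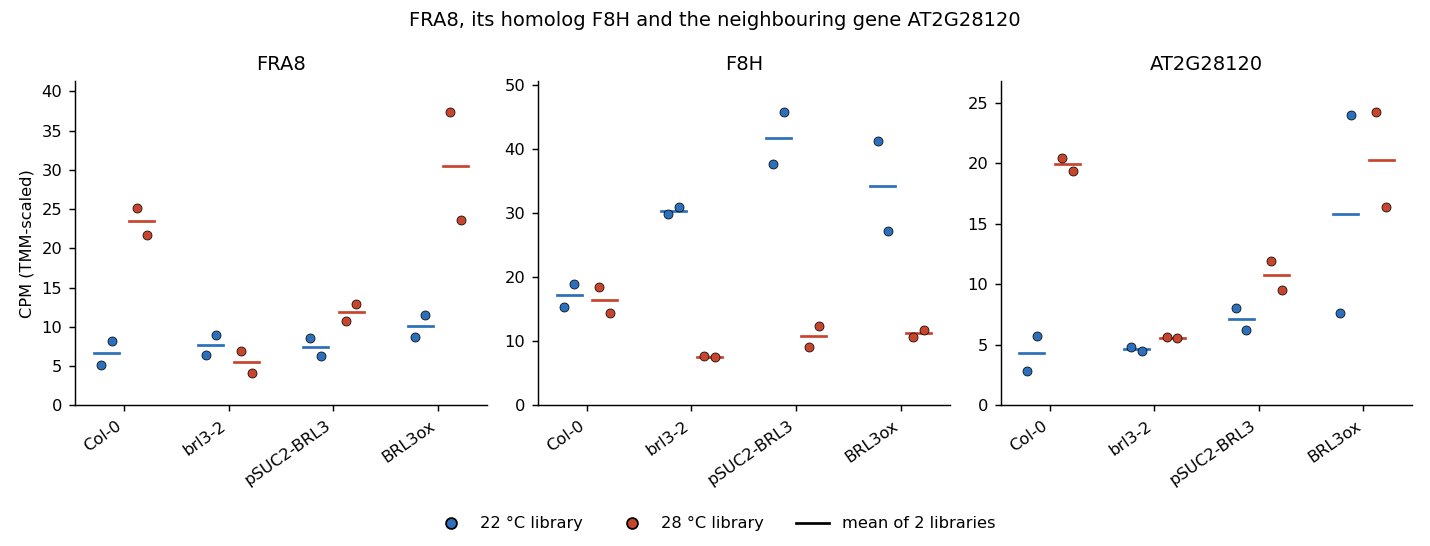
Level (y axis, CPM) of FRA8, F8H and AT2G28120 in each library, by genotype (x axis) and temperature (blue, 22 °C; red, 28 °C), with the mean of the 2 libraries as a line. At 28 °C FRA8 and AT2G28120 were at 21.7 to 25.1 and 19.4 to 20.4 CPM in Col-0 and at 4.09 to 6.94 and 5.55 to 5.64 CPM in brl3-2, and F8H was at 27.2 to 45.9 CPM in the 3 lines at 22 °C.

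Between genotypes at 22 °C edgeR called 1 of the 8 genes, VND6, in 1 of 4 comparisons, that of BRL3ox with Col-0. The groups did not overlap for 3 genes in brl3-2, 4 in pSUC2-BRL3 and 5 in BRL3ox against Col-0, and for 2 between pSUC2-BRL3 and brl3-2, against 58.7%, 65.2%, 61.6% and 60.3% of all tested genes. In brl3-2 against Col-0 0 of 8 were called (background 2.24%), with 0 at an unadjusted p below 0.05 and 0 by DESeq2. In pSUC2-BRL3 edgeR called 0 (background 10.6%), with 1 at an unadjusted p below 0.05, VND6 (-1.15, adjusted p = 0.138), and 0 by DESeq2. VND6 was called lower in BRL3ox, 1 of 8 against a background of 30.2%, by -1.50 (SE 0.49, adjusted p = 0.0396). That call was lost without replicate 2 of BRL3ox, the library that stood apart (-1.03, adjusted p = 0.235), and in 8 more fits without a single library. Between pSUC2-BRL3 and brl3-2 edgeR called 0 of the 8 genes (background 0.307%), while 0 had an unadjusted p below 0.05 and DESeq2 called 0. The 3 comparisons with Col-0 share its libraries; the values of VND6 against it were -0.87, -1.15 and -1.50 for brl3-2, pSUC2-BRL3 and BRL3ox.

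At 28 °C the comparisons other than that of brl3-2 with Col-0 had 0 calls by edgeR. For pSUC2-BRL3 against Col-0 edgeR called 0 (background 0.858%) and DESeq2 called 0. An unadjusted p below 0.05 was reached by 3 genes, MYB83 at -1.37, XCP1 at -0.80 and FRA8 at -0.98 (adjusted p = 0.369, 0.371 and 0.199). The share of all tested genes at that unadjusted limit was not counted, here or in the comparisons below. For 6 of the 8 genes the groups did not overlap, all but VND6 and VND7, against 50.3% of all tested genes. The count was 4 for brl3-2 against Col-0, 3 for BRL3ox against Col-0 and 5 for pSUC2-BRL3 against brl3-2, where 62.4%, 62.2% and 53% of all tested genes did not overlap. For BRL3ox against Col-0 edgeR called 0 (background 2.07%), the count at an unadjusted p below 0.05 was 0 and DESeq2 called 0. Between pSUC2-BRL3 and brl3-2 edgeR called 0 (background 1.61%), and DESeq2 called 1, FRA8. In this comparison DESeq2 called 1055 of the 20689 genes it tested, against 330 of 20505 by edgeR. In edgeR XCP1, XCP2, IRX9 and FRA8 had an unadjusted p below 0.05, with no share of all genes at that limit to set beside them. IRX9, at 1.61 and 1.61 CPM in pSUC2-BRL3 and 2.79 and 4.02 CPM in brl3-2, differed by -1.08 (adjusted p = 0.144), and was called in the fits without either of the BRL3ox libraries at 22 °C (-1.07 in each, adjusted p = 0.0418 and 0.0416). XCP1, XCP2 and IRX9 were thus lower in value in pSUC2-BRL3 than in brl3-2, and FRA8 higher. Of the responses to temperature, those of pSUC2-BRL3 and BRL3ox differed from that of Col-0 for 0 of the 8 genes by edgeR (backgrounds 1.95% and 2.58%). In pSUC2-BRL3 1 gene, FRA8, had an unadjusted p below 0.05, in BRL3ox 0, and DESeq2 called 0 in both.

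Per length of transcript, XCP2 was the highest of the 10 genes at both temperatures, at a median over 8 libraries of 14.4 RPKM (CPM per kilobase of exon) at 22 °C and 16.2 at 28 °C. XCP1 and FRA8 followed at 22 °C with 4.92 and 4.51 RPKM and ranges that overlapped (2.69 to 6.76 and 2.78 to 6.19). At 28 °C FRA8 came to 9.28 RPKM, with a range of 2.19 to 19.98 that reached from below XCP1 (2.96 to 6.45) into that of XCP2 (11.1 to 21.9). IRX9 was lower, at 1.07 and 1.75 RPKM, and its range did not reach that of XCP1 at either temperature. The regulators had medians of 0.52 and 0.78 RPKM for MYB46, 0.49 and 0.42 for VND6, 0.24 and 0.27 for MYB83 and 0.16 and 0.24 for VND7, with ranges that overlapped between neighbours. SND1 and NST1 were at 0.

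A wider set of 82 other genes of xylem formation, in 6 groups, gives the surroundings. Of the 74 tested, 32 were higher and 10 lower at 28 °C on average over the genotypes (background 35.9% higher, 33.5% lower), with a median change of 0.23 on the log2 scale. For the 8 tested genes above the median was 0.33, and for all tested genes 0.03. Without the 2 libraries that stood apart, 30 of 76 tested were higher and 15 lower. Among 21 tested regulators 9 rose and 5 fell. XND1, a NAC factor that holds back xylem differentiation, fell by 1.49 (adjusted p = 1.77e-05), and MYB20, a regulator of lignin genes, fell by 1.14 (adjusted p = 6.7e-05). T5L1, a bHLH factor that sets up vascular cells with LHW, rose by 0.68 (adjusted p = 3.21e-05), and MYB54 by 1.82 (adjusted p = 0.000569).

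Of 8 tested genes of vessel cell death 3 rose and 1 fell: CEP1, a cysteine protease, rose by 1.15, the metacaspase MC9 by 0.89 and the aspartic protease PASPA3 by 1.15, and the serine peptidase XSP1 fell by 0.34 (adjusted p = 0.00169, 0.00358, 0.00452 and 0.0196). The averaged changes of XCP1 and XCP2 were -0.08 and 0.28 and not called (0.50 and 0.86, both called, with library totals as the scaling), and differences between the proteases were not tested. Of 20 tested xylan genes other than IRX9 and FRA8, 9 rose and 1, F8H, fell, by 1.40 (adjusted p = 6.67e-07). For this group and the cell death genes the background was again 35.9% higher and 33.5% lower. RWA1 and RWA3, which serve xylan acetylation, rose by 1.15 and 0.77, and IRX14, a partner of IRX9 in the backbone, rose by 0.56 (adjusted p = 1.26e-06, 8.03e-07 and 5.19e-06).

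Of 10 tested genes of cellulose and wall assembly 6 rose and 0 fell, by edgeR, and 6 had an unadjusted p below 0.05 in either direction. The background for this and the groups below was 35.9% higher and 33.5% lower. Of all 20505 tested genes, 14213 passed even the adjusted limit, and none of these small counts was read as a property of a group. MAP70-5, a microtubule protein of the wall thickenings, rose by 1.45, the cellulose synthase CESA8 by 0.91, COBL4 by 0.80 and CTL2 by 0.38 (adjusted p = 4.28e-05, 5.82e-05, 0.000157 and 0.0113). Of 6 tested genes of lignin polymerisation 3 rose and 0 fell, with 3 at an unadjusted p below 0.05: the peroxidases PRX72 by 2.89 and PRX64 by 2.48, and the laccase LAC4 by 0.41 (adjusted p = 3.41e-08, 3.08e-07 and 0.00685). PRX64 is also known from the Casparian strip of the endodermis. The endodermis markers CASP1 and CASP2 rose by 2.14 and 1.17 on average (adjusted p = 6.84e-07 and 0.000251), and SCR was at -0.22 (adjusted p = 0.0107), a value smaller than the shift of 0.58 between scalings. All 3 were detected, with summed levels of 45.6 to 83.2 CPM at 22 °C and 66.8 to 91.7 CPM at 28 °C, and their part in the lignin group was not tested. Among 9 tested genes of the procambium, the stem cells of the vascular strand, 2 rose and 3 fell. ATHB15 rose by 0.64, while its relatives PHB and PHV fell by 0.52 and 0.28, and CLE41, a peptide signal from the phloem, fell by 1.19 (adjusted p = 4.74e-05, 0.000224, 0.00593 and 0.00021). With library totals as the scaling the averaged changes of XSP1, PHB and PHV turned to 0.24, 0.05 and 0.29, of which that of PHV was called (adjusted p = 0.083, 0.689 and 0.0109), while XND1, MYB20, F8H and CLE41 were still called lower. Under that scaling 54 of the 74 tested genes of these lists were called higher and 4 lower, in place of 32 and 10. Of all 20505 tested genes, 13397 were then called higher and 2742 lower.

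Of the 3 lines at 22 °C, BRL3ox had 10 of these 74 genes higher and 10 lower than Col-0 (background 30.2%). Those named by the rule were VNI2, a NAC repressor of VND7 (-1.10, adjusted p = 0.00284), MYB43 (-1.71, adjusted p = 0.00775), ACL5, a thermospermine synthase (1.04, adjusted p = 0.0163), SCPL48 (-1.41, adjusted p = 0.0353), IRX14L (0.92, adjusted p = 0.00525), LAC11 (-1.48, adjusted p = 0.0268), REV (-0.90, adjusted p = 0.0109) and CLE41 (-1.19, adjusted p = 0.0393). Without the 2 libraries ACL5 (0.59, adjusted p = 0.128), LAC11 (-1.01, adjusted p = 0.154) and CLE41 (-0.62, adjusted p = 0.0507) lost their calls, and SCPL48 was at -0.74 (adjusted p = 0.00696). For pSUC2-BRL3 5 were higher and 3 lower (background 10.6%), with F8H at 1.28 (adjusted p = 0.00799). For brl3-2 1 was higher and 1 lower (background 2.24%). Without the 2 libraries that stood apart, calls in these genes and in all tested genes were fewer in BRL3ox and more in the other lines. The calls for brl3-2 at 28 °C were also more without those libraries, in these genes and in all. In the full fit brl3-2 had 1 call at 28 °C, lower, in the xylan group, which was F8H (-1.12, adjusted p = 0.0212), against a background of 3.62%. That call was lost in 4 of the 16 fits without a single library (-1.29 to -0.93, adjusted p from 0.00349 to 0.228).

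**Figure D5:**
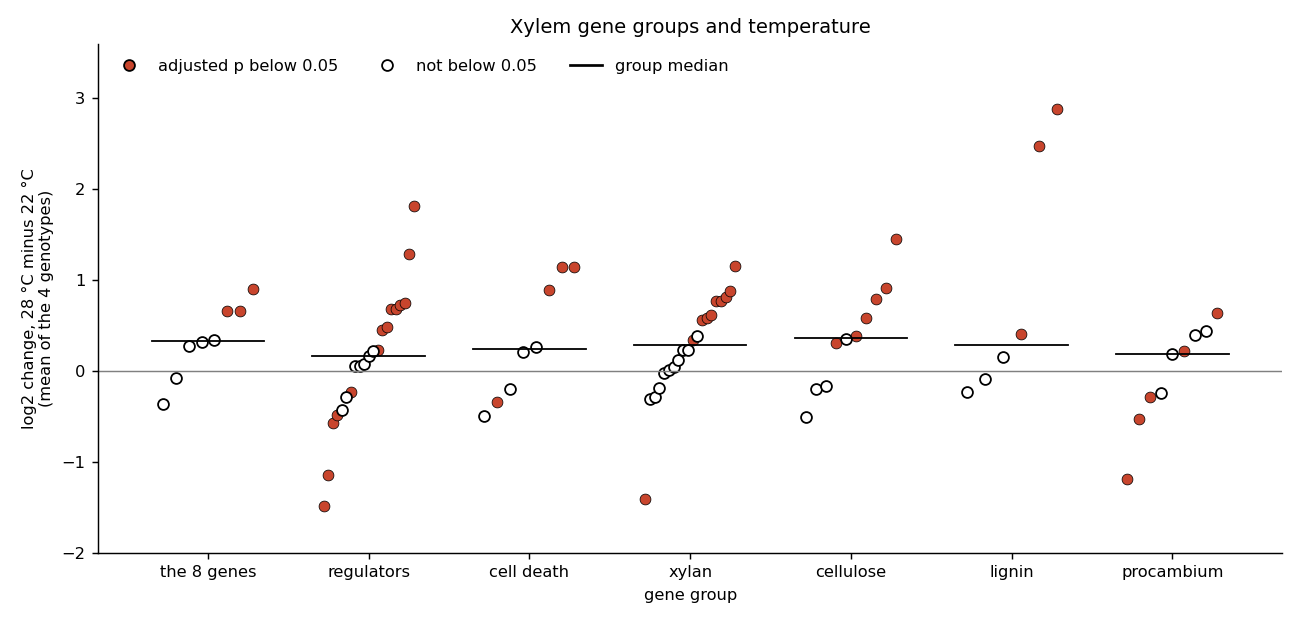
Change from 22 °C to 28 °C averaged over the 4 genotypes (y axis, log2) of each tested gene in 7 groups (x axis), with filled points at an adjusted p below 0.05 and group medians as lines. The highest points are PRX72 (2.89) and PRX64 (2.48), the lowest are XND1 (-1.49) and F8H (-1.40), and the 8 genes lie between -0.37 (VND6; 0.20 with library totals as the scaling) and 0.90 (FRA8).

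The genes whose log2 levels were most like those of each gene over the 16 libraries were named as the 3 highest Pearson r among genes with a symbol. For XCP2 the closest was LAC4, called IRX12 in the annotation, with an r of 0.935 (0.965 at 22 °C and 0.949 at 28 °C), followed by DMP2 (0.911) and GL22 (0.883). XCP1 had GL22 (0.860), XCP2 (0.846) and DMP2 (0.829), so the proteases shared both other names. FRA8 had TET5, a tetraspanin, at 0.939 (0.809 at 22 °C, 0.973 at 28 °C), XTH30, an enzyme of xyloglucan, at 0.926 and APS4 at 0.877. IRX9 had PRA1.B4 at 0.906. The regulators had low counts, and for them the closest were IBM1 at 0.949 for VND6, UMAMIT10 at 0.796 for VND7, SDG40 at 0.898 for MYB46 and emb1027 at 0.871 for MYB83. SDG40 shows how such values can rest on 1 temperature: its r with MYB46 was 0.908 at 22 °C and 0.358 at 28 °C. All of these share the same libraries, with a strong effect of temperature and 1 library that stood apart, and are a description.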

How the data were processed

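RNA from hypocotyls was sequenced in 16 libraries, 2 in each of 8 groups named in the labels. The deposited table holds raw counts of reads per gene, made by the authors. The submitters' processing notes name FastQC 0.11.2, Trimmomatic 0.38, HISAT2 2.1, featureCounts 1.6.2, edgeR 3.34.1 and the build TAIR10, with no order. The labels' protocols name a stranded mRNA kit; neither the annotation nor the strand setting of the counting is stated in them. Of the lines 1 had no gene name and at most 0.00463% of a library's counts, and was left out. Every column belonged to a sample.

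All 16 libraries were fitted at once with edgeR 4.0.16 under R 4.3.3 (TMM scaling, quasi-likelihood F-test, two-sided, 8 residual degrees of freedom) after its filter at 10 counts and a total of 15, with Benjamini-Hochberg adjustment over 20505 genes in each of 16 comparisons. CPM are TMM-scaled, and RPKM use the exon length of TAIR10.1. Correlations are over log2 CPM (prior count 2). Intervals of changes are at 95%, and the limit of 3 counts covers counting error only. The code was tested on simulated data. Alternatives were DESeq2 1.42.0, its size factors, no filter, a replicate block, leaving out each library, leaving out 2 libraries and, chosen after seeing the data, scaling by library totals. Figures were drawn with matplotlib 3.10.9.

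The 10 genes, the other lists and the markers were chosen with earlier results of these data known. All 10 genes are named in every comparison. From each other list at most 4 genes with the smallest adjusted p for the averaged temperature effect, and 2 for a line against Col-0, are named. All 118 listed loci were in the reference, and 114 of their symbols matched it.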

Additional observations from a re-analysis of the deposited data

Results flagged for a closer look

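Some responses to temperature differed between genotypes by a test of the difference itself. For FRA8 the response of brl3-2 was below that of Col-0 by a log2 difference of -2.29, with an adjusted p of 0.0483 in edgeR, from changes of -0.48 and 1.81. That call was lost in 14 of the 16 fits without a single library and with library totals as the scaling (adjusted p = 0.0504). For F8H the responses of brl3-2, pSUC2-BRL3 and BRL3ox were below that of Col-0 by -1.94, -1.89 and -1.55 (adjusted p = 0.0263, 0.0183 and 0.0305), all against the same Col-0 libraries, and these calls were lost in 7, 4 and 9 of the 16 fits. Every group had 2 libraries, too few to ask whether a single library lies far from its group.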

How the results depend on the processing

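Of the 16 counts of called genes, all were within 1.5 times under DESeq2's size factors, 14 with no low-count filter, 14 under DESeq2, 13 with the replicate block, 14 without the 2 libraries that stood apart and 11 with library totals as the scaling. In Col-0 with temperature the count of 2 became 1 with no filter, with the block and under DESeq2, and 4 with library totals. Under library totals it was 2 in brl3-2, 1 in pSUC2-BRL3, 6 on average and 0 for the response of brl3-2 against Col-0, and FRA8 gave 0.029 in brl3-2 with temperature. The calls over all tested genes with temperature under that scaling are given above. In BRL3ox against Col-0 at 22 °C it fell to 0 with no filter, with the block and without the 2 libraries, which also left 1 in BRL3ox with temperature. DESeq2 called 1, FRA8, for pSUC2-BRL3 against brl3-2 at 28 °C, where it called 1055 of all genes and edgeR 330. Leaving out single libraries gave 1 to 2 in Col-0, 0 to 1 in brl3-2 and 1 to 3 in BRL3ox with temperature, 0 to 3 for BRL3ox against Col-0 at 22 °C, and 0 to 1 for brl3-2 against Col-0 and for pSUC2-BRL3 against brl3-2 at 28 °C and for the response of brl3-2 against Col-0. FRA8 changed sign, uncalled throughout, at 22 °C in brl3-2 (-0.091 to 0.573) and pSUC2-BRL3 (-0.143 to 0.521) against Col-0 and in pSUC2-BRL3 against brl3-2 (-0.302 to 0.196), and in the response of BRL3ox against Col-0 (-0.584 to 0.079). Same-numbered replicates did not deviate together: over 28 pairs of groups r ran from -0.29 to 0.27 with 8 above 0.1, so the numbers give no pairing. With the replicate block, VND6 had adjusted p values of 0.0529 in Col-0 with temperature and 0.0526 for BRL3ox against Col-0 at 22 °C. The response of FRA8 in brl3-2 against Col-0 was then -2.29 (adjusted p = 0.0755), and the count for that comparison was 0. Over all 20505 tested genes the calls in that comparison went from 180 to 60 with the block. Apart from library totals, the cause of these moves was not tested. At 1 to 36 counts in a library, depth limits VND6, VND7, MYB46 and MYB83.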
